A study of Mus musculus with 6 samples.

Results

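The miR-200 family comprises 5 microRNAs (miRNAs), miR-200a, miR-200b, miR-200c, miR-141 and miR-429. Its members here were the mature features of the count table whose name, without species prefix and arm suffix, equalled 1 of these 5 names, which gave 10 of 1974 mature features, a 3p and a 5p arm for each hairpin. The table covers 6 small RNA libraries from mouse heart cells labelled as cardiomyocytes, all of the C57BL/6 strain. The knockout (KO) libraries have the genotype LncSync-/-, the loss of a long non-coding RNA, and the wild-type (WT) libraries carry no listed alteration. There were 2 adult KO, 2 adult WT, 1 e13.5 KO and 1 e13.5 WT libraries, where e13.5 is an embryonic stage in days after conception. The labels give neither the exact age of the adults nor the tissue or cell type in which the locus was deleted, and no pooling of hearts is mentioned. The targeted long RNA is not counted in a miRNA table, so the counts hold no direct check of the genotype labels.

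A miRNA is cut from a hairpin precursor and guides silencing of messenger RNAs that pair with its seed, the bases near its 5′ end. The miR-200 family is best known from epithelia, where it represses the transcription factors ZEB1 and ZEB2. These factors in turn repress the promoters of the family, so the loop holds cells in an epithelial or a mesenchymal state. The best studied setting is the epithelial-mesenchymal transition. In the developing heart such transitions take place in the endocardium and in the epicardium, while cardiac muscle itself is not an epithelium.

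The 3p arms fall into a pair of seed groups that differ at a central seed base, so each group can pair with its own set of targets. The mature sequences are shown because the results turn on which arm, which seed and which near-identical partner the reads belong to. They were taken from RefSeq (GRCm38.p6), in which all 10 features found a match. Letters run 5′ to 3′, and capitals mark the seed, bases 2 to 8.
miR-200b-3p: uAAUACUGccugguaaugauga
miR-200c-3p: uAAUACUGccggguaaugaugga
miR-429-3p: uAAUACUGucugguaaugccgu
miR-200a-3p: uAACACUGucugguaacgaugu
miR-141-3p: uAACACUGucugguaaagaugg
miR-200a-5p: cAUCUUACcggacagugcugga
The seed AAUACUG is shared by miR-200b-3p, miR-200c-3p and miR-429-3p, and the seed AACACUG by miR-200a-3p and miR-141-3p. Among 1679 mature mouse sequences searched, no miRNA outside the family carried either seed at that position. The seed of miR-200a-5p, AUCUUAC, was shared with miR-200b-5p.

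The closest pairs lie on different chromosomes. With positions counted from 1 at the 5′ end, miR-200a-3p and miR-141-3p differ by C17A and U22G, and miR-200b-3p and miR-200c-3p by U11G and A22G over the 22 bases they can be compared on. By contrast, miR-200b-3p and its chromosome 4 neighbour miR-429-3p differ by C9U, A19C, U20C and A22U. Mature arms were 21 to 23 bases long, so levels of different arms were compared without a correction for length.

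Mir200b, Mir200a and Mir429 form a cluster on the minus strand of chromosome 4 (GRCm38, chr4:156053905-156055750, 1846 bp). Their hairpins lie in introns of the protein-coding gene Ttll10, which is on the same strand, and Mir429 also overlaps an exon of the processed transcript Gm13648. Mir200c and Mir141 together span 477 bp on the minus strand of chromosome 6 (chr6:124717914-124718390), in an intron of the antisense gene Gm15884. Mir141 is 963 bp from Phb2, and Mir200c is 2316 bp from Ptpn6. The hairpin of Mir200a is shown because both of its arms were counted; capitals mark the 5p and the 3p arm.
Mir200a: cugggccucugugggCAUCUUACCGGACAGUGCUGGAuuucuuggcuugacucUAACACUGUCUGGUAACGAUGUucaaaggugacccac

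The libraries held 14347091 and 17608586 mature miRNA counts in adult KO, 17933518 and 16794840 in adult WT, 2671957 in e13.5 KO and 8944553 in e13.5 WT samples. Levels are given as CPM, a miRNA's counts per 1000000 mature counts of its library. A count of 0 allows up to 3 counts, which is 0.209 and 0.170 CPM in adult KO, 0.167 and 0.179 CPM in adult WT, 1.12 CPM in e13.5 KO and 0.335 CPM in e13.5 WT libraries. Intervals and these limits cover counting error only. Nothing in the labels shows that the replicates are different animals. The p-values therefore reflect only how much the libraries vary, and part of that variation may be technical. Against the cardiomyocyte label, 12 of 13 cardiac muscle arms (miR-1a, miR-133a, miR-133b, miR-208a, miR-208b and miR-499) were detected, with only miR-133b-5p at 0. They made up 28.2% to 39.5% of mature counts in adult libraries, 9.86% in e13.5 KO and 14.6% in e13.5 WT. Markers of other cells were present too. The smooth muscle arms (miR-143 and miR-145) summed to 71128 to 115720 CPM in adult libraries, 211630 CPM in e13.5 KO and 351020 CPM in e13.5 WT. Nearly all of that sum was miR-143-3p. miR-145a-5p went the other way, with 5645 and 3042.5 CPM in adult KO and 4477 and 4611 CPM in adult WT. It held 748 CPM in e13.5 KO and 1125 CPM in e13.5 WT. Between stages 3 of the 5 arms were called higher in adults (28.4% of all miRNAs tested) and 0 lower (29.3%).

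The family was a rare component of adult heart libraries and a moderately abundant one at e13.5. Summed over its 10 arms it held 42.3 and 24.5 CPM in adult KO and 48.3 and 54.8 CPM in adult WT libraries. At e13.5 it held 2040 CPM in the KO and 1453 CPM in the WT library. Every adult library lay far below both embryonic ones, with means of 42.5 ± 13.0 CPM in adults (SD, n = 4) and 1747 ± 415 CPM at e13.5 (SD, n = 2). By CPM the order of levels was e13.5 KO, e13.5 WT, adult WT and adult KO, but the order of the e13.5 libraries turned with scaling: divided by TMM factors (edgeR's scaling factors), the family held 942 CPM in e13.5 KO and 1170 CPM in e13.5 WT. The adult groups, at 33.4 ± 12.6 CPM in KO and 51.6 ± 4.55 CPM in WT (SD, n = 2 each), did not overlap, but with 2 libraries each no exact permutation test can go below p = 0.333. Divided by TMM factors, the family held 44.0 and 43.1 CPM in adult KO and 53.6 and 72.5 CPM in adult WT. The e13.5 libraries have no replicates, so the spread behind their order is unknown. In bulk RNA, fewer cells of a type and less RNA per cell cannot be told apart.

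**Figure D1:**
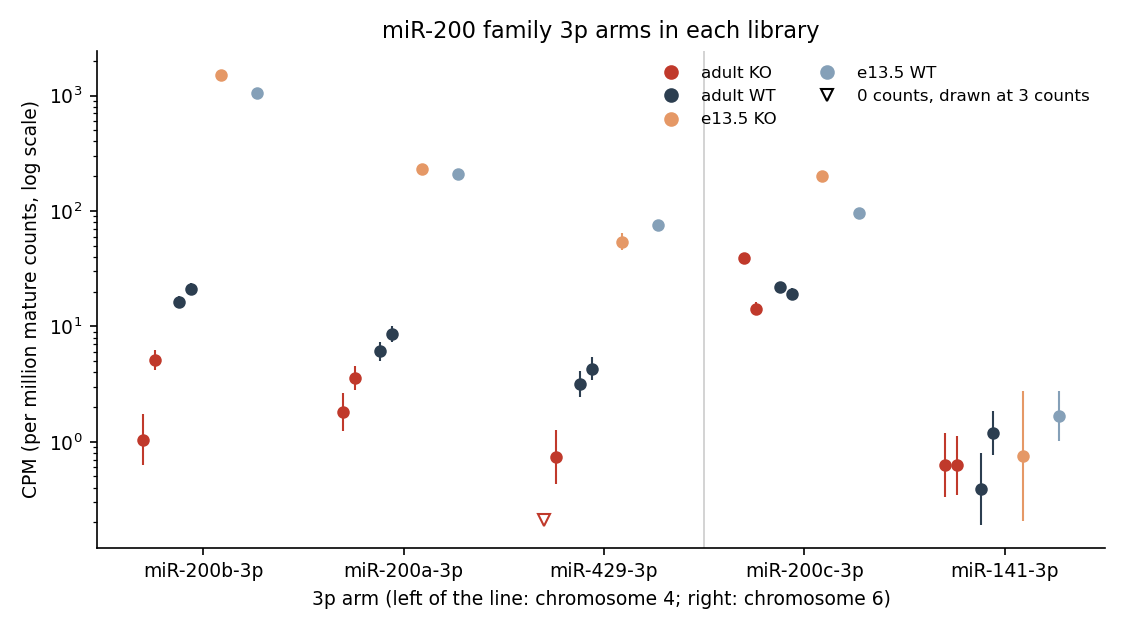
Level of each 3p arm of the miR-200 family in the 6 libraries, in CPM on a logarithmic axis, with 1 point per library, bars for the Wilson 95% interval and an open triangle for a library with 0 counts, drawn at 3 counts. The chromosome 4 arms miR-200b-3p, miR-200a-3p and miR-429-3p are far lower in the adult than in the e13.5 libraries, miR-200c-3p is moderately lower, and the intervals of miR-141-3p overlap between stages.

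The 3p arms carried nearly all reads. miR-200b-3p, the most abundant arm at e13.5, had 15 and 90 counts in adult KO, 291 and 357 in adult WT, 4033 in e13.5 KO and 9357 in e13.5 WT libraries. That is 1.05 and 5.11 CPM in adult KO, 16.2 and 21.3 CPM in adult WT, 1509 CPM in e13.5 KO and 1046 CPM in e13.5 WT. It stood at rank 58 of the mature miRNAs in both e13.5 libraries, at ranks 480 and 269 in adult KO and at ranks 230 and 204 in adult WT. Its levels at the 2 stages did not overlap, and neither did those of the adult genotypes. Such separation was common: of the 679 miRNAs tested between stages 44.2% were lower in all 4 adult libraries than in both e13.5 libraries, and of the 544 tested in adults 20.8% were lower in both KO than in both WT libraries.

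miR-200a-3p, of the other seed group, had 26 and 63 counts in adult KO, 109 and 144 in adult WT, 615 in e13.5 KO and 1861 in e13.5 WT libraries. Its CPM was 1.81 and 3.58 in adult KO, 6.08 and 8.57 in adult WT, 230 in e13.5 KO and 208 in e13.5 WT. The same order held as for its cluster neighbour miR-200b-3p, with the adult KO libraries lowest, but the e13.5 libraries lay closer together. miR-429-3p, the third hairpin's arm, had 0 and 13 counts in adult KO, 57 and 72 in adult WT, 145 in e13.5 KO and 680 in e13.5 WT libraries. The corresponding levels were 0 and 0.738 CPM in adult KO, 3.18 and 4.29 CPM in adult WT, 54.3 CPM in e13.5 KO and 76.0 CPM in e13.5 WT. Adult KO replicate 1 was thus without any miR-429-3p read. The 3 chromosome 4 3p arms were lower in adult KO than in adult WT libraries without overlap. That separation was seen in 20.8% of all miRNAs tested in adults, and arms of a single cluster are not independent observations.

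The chromosome 6 arms behaved otherwise. miR-200c-3p had 557 and 251 counts in adult KO, 394 and 321 in adult WT, 541 in e13.5 KO and 855 in e13.5 WT libraries. This is 38.8 and 14.3 CPM in adult KO, 22.0 and 19.1 CPM in adult WT, 202 CPM in e13.5 KO and 95.6 CPM in e13.5 WT. By CPM the adult KO libraries lay on both sides of the adult WT libraries. Divided by TMM factors, miR-200c-3p held 40.4 and 25.1 CPM in adult KO and 24.4 and 25.3 CPM in adult WT, so this placing turned with scaling. miR-141-3p, cut from the neighbouring hairpin, was scarce everywhere, with 9 and 11 counts in adult KO, 7 and 20 in adult WT, 2 in e13.5 KO and 15 in e13.5 WT libraries. Its levels overlapped between stages and between adult genotypes.

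The 5p arms, the minor products of these hairpins, were mostly near the limit of detection. miR-200a-5p was the exception at e13.5, with 108 counts (40.4 CPM) in the KO and 209 counts (23.4 CPM) in the WT library, against 0 and 0 counts in adult KO and 1 and 6 counts in adult WT. miR-200b-5p had 0 and 1 counts in adult KO, 3 and 0 in adult WT, 5 in e13.5 KO and 21 in e13.5 WT. miR-141-5p had 0 and 2 counts in adult KO, 4 and 0 in adult WT, 2 in e13.5 KO and 1 in e13.5 WT. miR-200c-5p was seen as 1 count, in adult WT replicate 1, and miR-429-5p was at 0 in all 6 libraries. The 5p arm made up 14.9% of miR-200a reads in e13.5 KO (Wilson 95% interval 12.5 to 17.7) and 10.1% in e13.5 WT (8.87 to 11.5). It made up 0 of 26 and 0 of 63 reads in adult KO, where 0 reads give upper Wilson bounds of 12.9% and 5.75%. In adult WT it made up 0.909% (0.161 to 4.97) and 4% (1.85 to 8.45) of reads.

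The first question was how the family differs between adult and embryonic heart cells, with genotype held in the model. The test was edgeR's quasi-likelihood test over 679 miRNAs, with Benjamini-Hochberg adjustment over all of them. A change between stages was the rule in these data: 57.7% of the miRNAs tested passed an adjusted p of 0.05 in either direction, and 29.3% passed as lower in adults. Of the 10 arms 7 passed the filter on low counts and 6 were called lower in adults. miR-200a-5p and miR-200b-5p passed that filter through their e13.5 counts alone, so their difference was built into the selection and supports nothing further.

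miR-200b-3p fell by 6.25 on the log2 scale in adult relative to e13.5 libraries (SE 0.85, edgeR adjusted p = 0.000407). Over summed counts its CPM was 102 times lower in adults (95% counting interval 94.8 to 110). miR-200a-3p fell by 4.46 (SE 0.59, edgeR adjusted p = 0.000368), a ratio of 41.6 over summed counts, and miR-429-3p fell by 4.54 (SE 1.01, edgeR adjusted p = 0.00490), a ratio of 33.4. These 3 arms of the chromosome 4 cluster were lower in 4 of 4 adult libraries than in either e13.5 library. The same held for 44.2% of all miRNAs tested, and neighbours in a single cluster are not independent observations. The 3 arms kept their call in every alternative fit listed in the closing section. The 5p arms, selected by the filter through their e13.5 counts, are given as a description only. miR-200a-5p fell by 7.51 (SE 1.13, edgeR adjusted p = 0.000729), and miR-200b-5p by 4.07 (SE 1.52, edgeR adjusted p = 0.0453).

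miR-200c-3p, from chromosome 6, fell by 1.57 on the log2 scale (SE 0.46, edgeR adjusted p = 0.0174) and was 5.26 times lower in adults over summed counts (95% counting interval 4.89 to 5.66). It too was lower in 4 of 4 adult libraries, but the call depended on the libraries used. It ended when either e13.5 library was left out and among KO libraries alone. Among WT libraries alone, which also lack e13.5 KO, it held. The fitted log2 difference of miR-141-3p was 0.27 (SE 1.20, edgeR adjusted p = 0.868), which is no detectable difference at these counts. The miR-200b-5p call likewise ended without adult WT replicate 1 (adjusted p = 0.0677), without adult WT replicate 2 (0.0748) or without e13.5 KO (0.273).

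How the libraries are scaled matters for the size of these folds. The median log2 fold of all miRNAs tested, adult over e13.5, was 0.06 under TMM scaling, −0.72 under median-of-ratios scaling and −0.93 under scaling by library totals, and the share of calls that were higher in adults was 49.2%, 35.6% and 31.3% in the same order. Relative to that median, miR-200b-3p lay at −6.32, −6.36 and −6.72 under the same scalings. miR-200c-3p lay at −1.64, −1.63 and −1.66, and miR-141-3p at 0.20, 0.22 and 0.19. The 6 calls were made under all 3 scalings, and the unadjusted sign of miR-141-3p turned with the scaling while its place relative to the median did not.

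**Figure D2:**
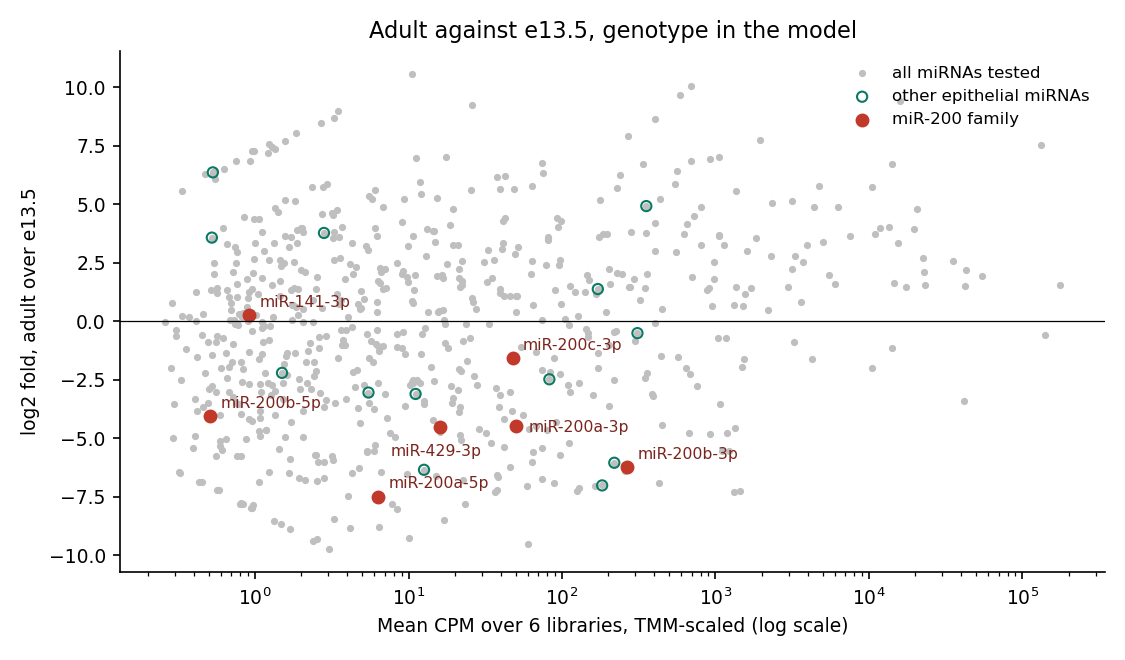
Log2 fold of adult over e13.5 (genotype in the model) against mean TMM-scaled CPM on a logarithmic axis for the 679 miRNAs tested, with the 7 tested arms of the miR-200 family as filled points, the other epithelial miRNAs as open circles and all others in grey. The chromosome 4 arms lie between −4.07 and −7.51, miR-200c-3p at −1.57 and miR-141-3p at 0.27, while the other epithelial miRNAs lie on both sides of 0.

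The stage difference was also fitted within each genotype, where the spread comes from a single pair of adult libraries and the e13.5 library is assumed to vary like them. miR-200b-3p had a log2 fold of −7.60 among KO libraries and −5.19 among WT libraries. miR-200a-3p had −5.18 among KO and −4.21 among WT libraries, and miR-429-3p had −5.77 among KO and −3.74 among WT libraries. All 3 arms were lower in adults in both genotypes, with 1 e13.5 library behind each fold. miR-200c-3p had −1.98 among KO libraries and −1.64 among WT libraries. Whether the stage difference itself depends on genotype is given with the interaction.

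Because the chromosome 4 arms were lower in adults by a larger factor than miR-200c-3p, the family's make-up differed between stages. The chromosome 4 hairpins gave 6.75% (Wilson 95% interval 5.02 to 9.04) and 38.7% (34.3 to 43.4) of family counts in adult KO libraries. They gave 53.2% (49.8 to 56.5) and 62.9% (59.8 to 66.0) in adult WT libraries. At e13.5 they gave 90.0% (89.2 to 90.8) in KO and 93.3% (92.9 to 93.7) in WT. The e13.5 shares lay above every adult share, and the adult KO shares lay below the adult WT shares.

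miR-200c took the converse place, with 91.8% and 58.2% of family counts in adult KO, 45.6% and 34.9% in adult WT, 9.92% in e13.5 KO and 6.58% in e13.5 WT. The ratio of miR-200b-3p to miR-200c-3p, arms with the same seed from the 2 clusters, was 0.0269 and 0.359 in adult KO, 0.739 and 1.11 in adult WT, 7.45 in e13.5 KO and 10.9 in e13.5 WT. miR-200c-3p thus exceeded miR-200b-3p in 3 of 4 adult libraries and in neither e13.5 library. On the log2 scale this ratio averaged −1.74 ± 2.41 in adults (SD, n = 4) and 3.18 ± 0.39 at e13.5 (SD, n = 2), with a two-sided exact permutation p of 0.133, the smallest this design allows. It averaged −3.35 ± 2.64 in adult KO and −0.14 ± 0.42 in adult WT (SD, n = 2 each), with a two-sided exact permutation p of 0.333, again the smallest possible.

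The balance of the seed groups moved much less. Arms with the seed AAUACUG made up 94.2% and 82.7% of 3p reads in adult KO, 86.5% and 82.1% in adult WT, 88.4% in e13.5 KO and 85.3% in e13.5 WT. The adult and e13.5 ranges overlapped, and both of the leading arms, miR-200c-3p and miR-200b-3p, carry that seed. Within the chromosome 4 cluster, miR-200b gave 36.6% and 54.5% of counts in adult KO, 63.8% and 61.7% in adult WT, 82.3% in e13.5 KO and 77.3% in e13.5 WT. miR-429 gave 0% and 7.78% in adult KO, 12.4% and 12.4% in adult WT, 2.96% in e13.5 KO and 5.61% in e13.5 WT.

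**Figure D3:**
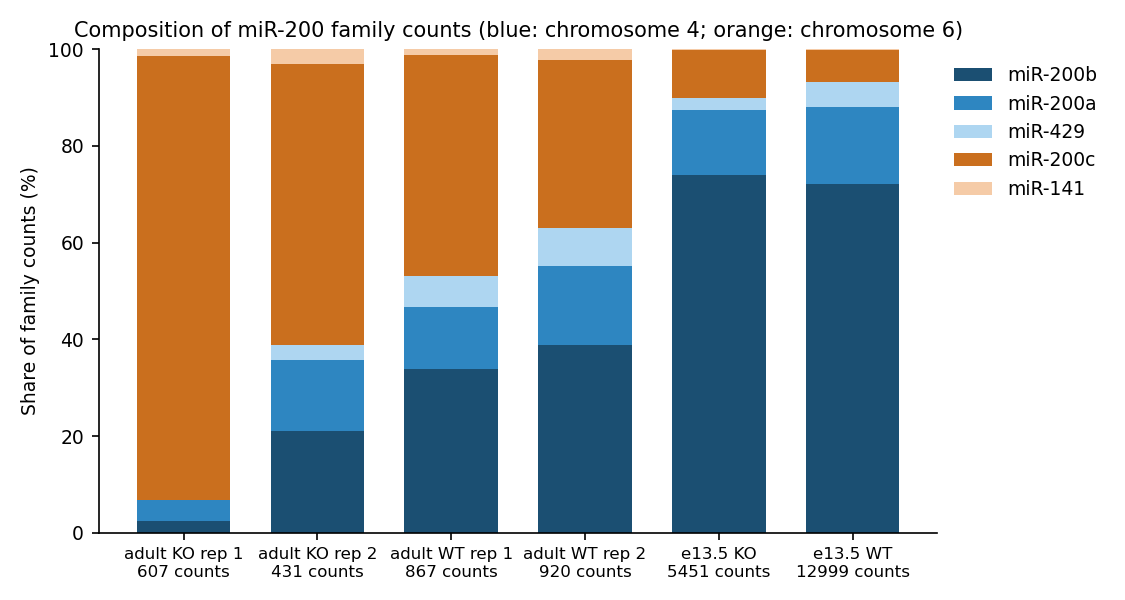
Share of the family's counts from each hairpin, in percent, as stacked bars for the 6 libraries. miR-200b gives 74.1% and 72.1% of family counts in the e13.5 KO and WT libraries, and miR-200c gives 34.9% to 91.8% in the adult libraries.

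Reads that could fit a near-identical partner set a limit on the rare arms, since the allowance for mismatches is not given in the sources used here. miR-141-3p counts equalled 0.325% of miR-200a-3p counts in e13.5 KO and 0.806% in e13.5 WT, and 6.42% to 34.6% in adult libraries. In adult KO replicate 1, miR-200b-3p counts equalled 2.69% of miR-200c-3p counts. How many of these few reads belong to the partner arm was not tested. Hairpin features gave the same picture as the arms: their counts equalled the sum of both arms in 27 of 30 hairpin and library pairs, with a largest difference of 2 counts.

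The second question was whether loss of lncSync is accompanied by a difference in the family in adult hearts. The chromosome 4 3p arms had lower mean levels in KO, and none of the 5 arms tested passed. Among all 544 miRNAs tested, 0.735% passed in either direction by edgeR's quasi-likelihood test with Benjamini-Hochberg adjustment, all of them lower in KO, and 16 (2.94%) had an unadjusted p under 0.05. DESeq2 and limma-voom also called 0 of the 5 arms, and 0 of the 5 had an unadjusted p under 0.05 in edgeR, against 2 in DESeq2 and 1 in limma-voom.

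miR-200b-3p averaged 3.08 ± 2.87 CPM in adult KO and 18.7 ± 3.56 CPM in adult WT (SD, n = 2 each), and the fitted log2 difference was −2.14 (SE 0.92, edgeR adjusted p = 0.999, unadjusted p = 0.0514). miR-200a-3p averaged 2.70 ± 1.25 CPM in adult KO and 7.33 ± 1.77 CPM in adult WT, where the fit gave −1.09 (SE 0.73, edgeR adjusted p = 0.999). miR-429-3p averaged 0.369 ± 0.522 CPM in adult KO and 3.73 ± 0.784 CPM in adult WT, where it gave −2.80 (SE 1.40, edgeR adjusted p = 0.999). All 3 were lower in 2 of 2 KO libraries than in either WT library, against 20.8% of all miRNAs tested. As neighbours in a single cluster they are not independent observations, so that share gives no measure of the 3 together. miR-429-3p, with 0 and 13 counts in adult KO, owed its passing of the filter to its WT counts. By counting error alone the KO to WT ratios over summed counts were 0.176 (95% interval 0.142 to 0.217), 0.382 (0.297 to 0.489) and 0.110 (0.0568 to 0.194) for miR-200b-3p, miR-200a-3p and miR-429-3p.

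miR-200c-3p averaged 26.5 ± 17.4 CPM in adult KO and 20.5 ± 2.02 CPM in adult WT (SD, n = 2 each), with a fitted log2 difference of 0.47 (SE 0.48, edgeR adjusted p = 0.999). miR-141-3p averaged 0.626 ± 0.00185 CPM in adult KO and 0.791 ± 0.566 CPM in adult WT, and its fitted difference was −0.13 (SE 1.29, edgeR adjusted p = 0.999). Relative to the median of all miRNAs, miR-200b-3p lay at −2.22, −2.24 and −2.48 and miR-200c-3p at 0.39, 0.40 and 0.49 with TMM, median-of-ratios and library-total scaling.

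For miR-200b-3p and miR-200c-3p the adult KO replicates lay further apart than the WT replicates. miR-200b-3p was 4.89 times higher in KO replicate 2 than in replicate 1 (95% counting interval 2.81 to 9.10), and 1.31 times higher in WT replicate 2 than in replicate 1 (1.12 to 1.53). miR-200c-3p went the other way and was 2.72 times higher in KO replicate 1 than in replicate 2 (2.34 to 3.17). These ratios are in CPM, and their size depends on the scaling. Divided by the TMM factors of the stage fit, miR-200b-3p held 1.09 CPM in KO replicate 1 and 9.01 CPM in KO replicate 2. By the same factors miR-200c-3p held 40.4 CPM in KO replicate 1 and 25.1 CPM in KO replicate 2. The gap was thus wider for miR-200b-3p and narrower for miR-200c-3p than in CPM. For miR-141-3p it was the WT replicates that lay further apart, by a factor of 3.05 (1.24 to 8.54). miR-429-3p was at least 3.53-fold lower in KO replicate 1 than in replicate 2, with 3 counts taken as the limit for the library at 0. Without KO replicate 2 the spread comes from the WT libraries and the lone KO library is assumed to vary like them. In that fit 3 arms passed, with log2 folds of −4.38 for miR-200b-3p (edgeR adjusted p = 1.98e-07), −2.24 for miR-200a-3p (0.0282) and −9.02 for miR-429-3p (2.12e-05). The fitted fold of miR-429-3p depends on the prior count, since the remaining KO library was at 0, and 7.29% of all 645 miRNAs tested passed. Without KO replicate 1 no arm passed, and the log2 folds were −1.30, −0.46 and −1.75.

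Markers of other cells also differed between the KO replicates. The erythroid arms (miR-451a, miR-144 and miR-486a; 5 of 5 detected) summed to 22276 and 5651 CPM in adult KO, 15709 and 10386 CPM in adult WT, 14321 CPM in e13.5 KO and 748 CPM in e13.5 WT libraries. The liver miRNA miR-122 (2 of 2 arms detected) summed to 3.83 and 0.454 CPM in adult KO, 1.62 and 0.417 CPM in adult WT, 192 CPM in e13.5 KO and 45.2 CPM in e13.5 WT. The leukocyte arms (miR-142a, miR-223 and miR-150; 6 of 6 detected) summed to 1707 and 855 CPM in adult KO, 1187 and 859 CPM in adult WT, 117 CPM in e13.5 KO and 55.9 CPM in e13.5 WT. KO replicate 1 was the adult library with the most of all 3 markers, and e13.5 KO held more of each than e13.5 WT. Within the leukocyte list miR-142a-5p went the other way, with 48.1 CPM in KO replicate 1 and 51.8 CPM in KO replicate 2. KO replicate 1 also had the least of the cardiac muscle arms among adult libraries, at 281710 CPM against 395270 CPM in KO replicate 2. The endothelial arms (miR-126a and miR-126b) were likewise lowest there, at 16487 CPM against 31068 CPM in KO replicate 2. The part of these cells in the family's levels was not tested.

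**Figure D4:**
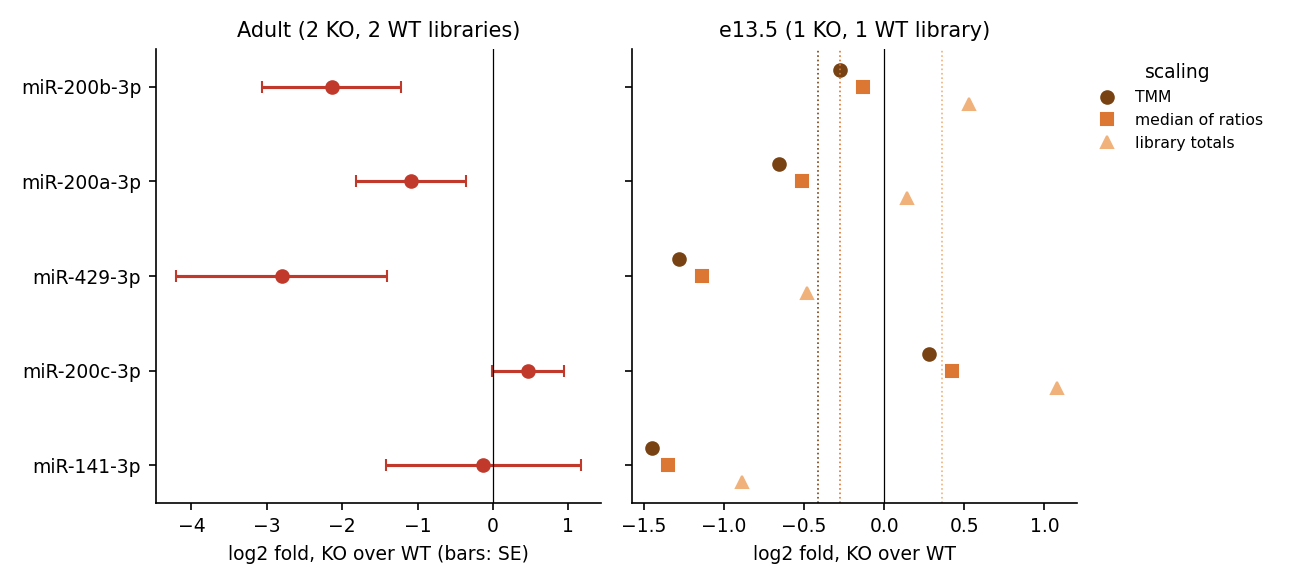
Log2 fold of KO over WT for the 5 3p arms, in adults (left, fitted fold with its SE, 2 libraries per genotype) and at e13.5 (right, 1 library per genotype, under 3 scalings, with dotted lines at the median of all miRNAs). In adults the chromosome 4 arms lie at −2.14, −1.09 and −2.80 and miR-200c-3p at 0.47, with none past the threshold; at e13.5 the points of miR-200b-3p and miR-200a-3p lie on either side of 0 depending on the scaling.

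At e13.5 each genotype has 1 library, so the values have no replicate check and no test was made. None of the 7 arms with at least 10 counts in either library differed by 4-fold or more between KO and WT, a fold reached by 17.3% of the 565 miRNAs described. In CPM, miR-200b-3p was 1.44 times higher in the KO library (95% counting interval 1.39 to 1.50), miR-200c-3p 2.12 times higher (1.90 to 2.36) and miR-200a-5p 1.73 times higher (1.36 to 2.19). The KO to WT ratio was 1.11 for miR-200a-3p (1.01 to 1.21) and 0.714 for miR-429-3p (0.592 to 0.855).

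These directions depend on the scaling, because the median log2 fold of all 565 miRNAs was −0.41 with TMM, −0.28 with median-of-ratios and 0.36 with library-total scaling. The log2 fold of miR-200b-3p was −0.27, −0.13 and 0.53 under these scalings, that of miR-200a-3p −0.66, −0.51 and 0.15, and that of miR-200a-5p −0.01, 0.13 and 0.78, so the sign of each turned. That of miR-429-3p was −1.28, −1.14 and −0.48, and that of miR-200c-3p 0.28, 0.42 and 1.08, so neither sign turned. Relative to the median of all miRNAs, miR-200b-3p lay at 0.14, 0.14 and 0.17 and miR-200a-3p at −0.24, −0.24 and −0.21. miR-200c-3p lay above the median by 0.69, 0.70 and 0.72, and miR-429-3p below it at −0.87, −0.87 and −0.84.

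With stage in the model and 3 libraries per genotype, 0 of the 7 arms tested passed, against 0.736% of the 679 miRNAs. The log2 folds of KO over WT were −1.56 for miR-200b-3p, −0.98 for miR-200a-3p, −2.28 for miR-429-3p and 0.36 for miR-200c-3p, each with an edgeR adjusted p of 0.989. Without adult KO replicate 2 the folds were −2.41 for miR-200b-3p, −1.59 for miR-200a-3p and −3.28 for miR-429-3p, and without adult KO replicate 1 they were −0.78, −0.49 and −1.47. The smallest unadjusted p was 0.0509, for miR-429-3p, and DESeq2 and limma-voom called 0 of the 7 arms. No arm was past an unadjusted p of 0.05 in edgeR, and DESeq2 and limma-voom each had 1.

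The interaction asked whether the KO to WT difference at e13.5 departs from that in adults. Here the adult pairs alone supply the spread, which is taken to hold for each unreplicated e13.5 library as well. The log2 difference, e13.5 minus adult, was 1.92 for miR-200b-3p (SE 1.42, edgeR adjusted p = 0.917), 1.58 for miR-429-3p (SE 1.89, 0.949), 0.49 for miR-200a-3p (SE 1.19, 1.0) and −0.11 for miR-200c-3p (SE 0.95, 1.0). None of 7 arms passed, and 0% of the 769 miRNAs tested passed, with 46 of them (5.98%) and none of the arms at an unadjusted p under 0.05. DESeq2 called 4 miRNAs and limma-voom 0, with no arm of the family among them. With adult libraries left out in turn, the difference ranged from 1.055 to 4.16 for miR-200b-3p and from 0.495 to 7.49 for miR-429-3p. Both were highest without adult KO replicate 2, where the remaining adult KO library had 0 counts of miR-429-3p.

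Other miRNAs known from epithelia were set beside the family: miR-183, miR-96, miR-182, miR-203, miR-205, miR-375, miR-192, miR-194 and miR-215, of which 18 of 19 arms were detected. Together they held 678 and 885 CPM in adult KO, 872 and 780 CPM in adult WT, 4321 CPM in e13.5 KO and 2322 CPM in e13.5 WT libraries. They were higher at e13.5, but by far less than the miR-200 family. In the stage comparison 13 of the 19 arms were tested, of which 6 were lower in adults (29.3% of all miRNAs), 2 were higher (28.4% of all miRNAs) and 5 did not pass, with a median log2 fold of −2.21, against 0.06 over all miRNAs. Of these 13, miR-205-5p passed the filter on low counts through the e13.5 libraries alone, and miR-192-3p and miR-203-5p through the adult libraries alone, so the median and counts are only a description. No arm of this list passed in the adult genotype comparison (12 tested), the genotype comparison over both stages (13 tested) or the interaction (14 tested), and none had an unadjusted p under 0.05 there.

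The most abundant of them did not move alike between stages. miR-182-5p, of a sensory and epithelial cluster shared with miR-183 and miR-96, had 11.2 and 4.03 CPM in adult KO, 6.02 and 9.35 CPM in adult WT, 1698 CPM in e13.5 KO and 611 CPM in e13.5 WT libraries. It fell by 6.05 on the log2 scale in adults (SE 0.52, edgeR adjusted p = 9.11e-05), and miR-183-5p fell by 7.02 (SE 0.68, edgeR adjusted p = 9.98e-05). Both were close to miR-200b-3p in the size of the stage difference. miR-194-5p, best known from liver and gut, had 298 and 419 CPM in adult KO, 442 and 413 CPM in adult WT, 17.2 CPM in e13.5 KO and 38.5 CPM in e13.5 WT, and rose by 4.92 in adults (SE 0.78, edgeR adjusted p = 0.000925). miR-192-5p, which is expressed with it in those tissues, did not pass, at −0.51 (SE 0.45, edgeR adjusted p = 0.345). The listed epithelial miRNAs thus lay on both sides of 0 between stages.

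In their sums the endothelial, mesenchymal and neural markers were more even across stages than the family, while the liver list given above was less even. Single arms did move: 2 of 2 endothelial and 1 of 2 neural arms tested were called higher in adults (28.4% of all miRNAs). Of the mesenchymal arms 1 of 5 was called lower (29.3% of all miRNAs). The endothelial arms (miR-126a and miR-126b; 3 of 4 detected) summed to 16487 to 31068 CPM in adult libraries, 16343 CPM in e13.5 KO and 18992 CPM in e13.5 WT. The mesenchymal arms (miR-199a, miR-199b and miR-214; 5 of 5 detected) summed to 1931 to 3708 CPM in adults, 3226 CPM in e13.5 KO and 4733 CPM in e13.5 WT. The neural arms (miR-9 and miR-124, with 4 of 4 detected) summed to 78.7 to 155 CPM in adults, 306 CPM in e13.5 KO and 238 CPM in e13.5 WT. Nearly all of that sum was miR-9-5p. miR-9-3p went the other way, with 3.62 and 18.7 CPM in adult KO and 9.03 and 4.82 CPM in adult WT. It held 0.749 CPM in e13.5 KO and 1.01 CPM in e13.5 WT, and miR-124-3p had 0 counts in both e13.5 libraries. The ratio of adult to e13.5 means was 0.0243 for the family, 0.242 for the other epithelial miRNAs, 0.626 for the mesenchymal, 1.43 for the endothelial and 0.0133 for the liver list. The cells in which the family was expressed cannot be read from these bulk libraries, and the part of each marker's cells was not tested.

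**Figure D5:**
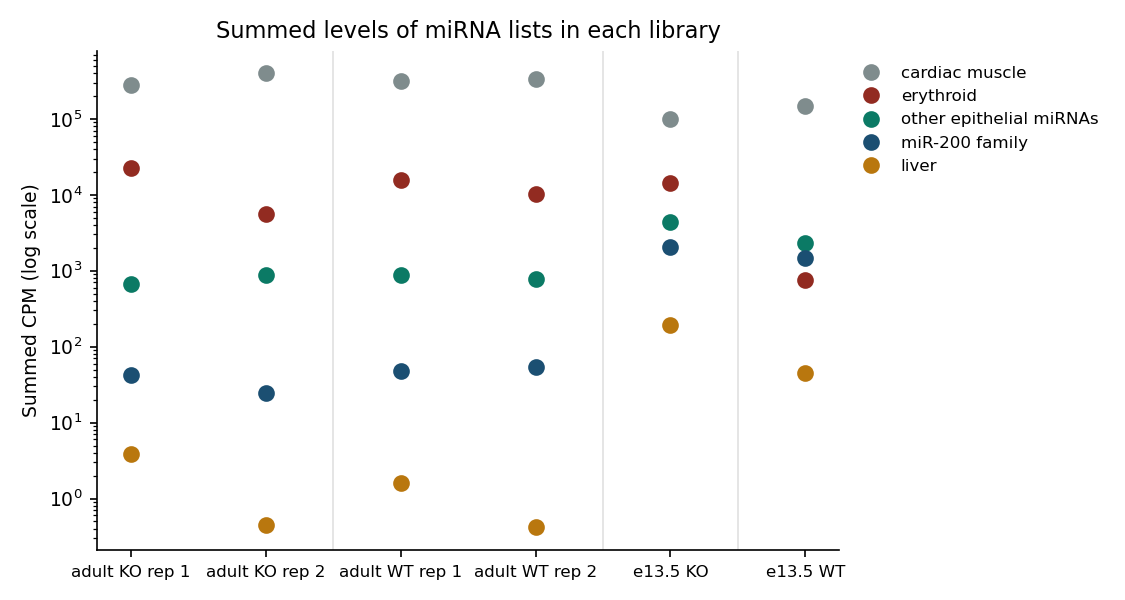
Summed CPM of the cardiac muscle, erythroid, other epithelial, miR-200 family and liver miRNAs in the 6 libraries, on a logarithmic axis, with 1 point per library. The family holds 24.5 to 54.8 CPM in the adult libraries and 2040 and 1453 CPM in the e13.5 KO and WT libraries, and the liver miRNA, at 0.417 to 3.83 CPM in adult libraries and 192 and 45.2 CPM in the e13.5 KO and WT libraries, shows a stage contrast of similar size.

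The miRNAs whose pattern over the 6 libraries was most like the summed family were ranked by the root mean square difference in log2 TMM-scaled CPM after centring, among 672 miRNAs outside the family. The closest were miR-3473a (0.122), miR-292a-5p (0.300), miR-370-5p (0.305), miR-5099 (0.317) and miR-302c-3p (0.318), where the median over all miRNAs was 2.27. Of these only miR-5099 had counts in every library, with 59.1 and 28.7 CPM in adult KO, 37.3 and 55.9 CPM in adult WT, 2962 CPM in e13.5 KO and 1379 CPM in e13.5 WT. The other 4 were at or near 0 in adults and under 10 CPM at e13.5, so their likeness rests on few reads. Their adult values in this ranking were set mostly by the prior count of 2, so their small distances depend on that choice. For the seed group AACACUG the order changed, and the closest were miR-708-5p (0.421), miR-493-5p (0.430), miR-411-5p (0.448), miR-3473a (0.497) and miR-344-3p (0.503). miR-411-5p was the most abundant of these, with 27.6 and 52.2 CPM in adult KO, 53.8 and 57.9 CPM in adult WT, 2425 CPM in e13.5 KO and 3311 CPM in e13.5 WT. The distances rest on 6 libraries of unequal depth, 4 adult and 2 e13.5, and carry no test.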

How the data were processed

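Total RNA extracted with TRIZOL and treated with DNase was made into small RNA libraries with a NEXTFLEX kit, per the labels' protocols. The authors deposited raw read counts, as whole numbers per hairpin and mature miRNA with 1 column per library, and mm10 is the build in the submitters' processing notes. How reads were trimmed, aligned and counted, and how reads matching more than 1 miRNA were handled, is not given in the sources used here. Molecular identifiers are not mentioned.

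The table covered 3208 features (1234 hairpins, 1974 mature miRNAs) and 0 columns of other samples. Mature miRNAs with counts equal within 1% of their total (total at least 20, counts in at least 3 libraries) were merged; 22 were, none of them in the family, which left 1952, of which 1231 were detected. CPM is a count per 1000000 of these.

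Tests used R 4.3.3 and edgeR 4.0.16 (quasi-likelihood fit and F test, two-sided, TMM, filterByExpr with a minimum count of 10, Benjamini-Hochberg adjustment over all miRNAs tested, threshold 0.05). Residual degrees of freedom were 2 in adults, 3 with stage and genotype and 2 for the interaction. At e13.5, log2 folds of TMM-scaled CPM used a prior count of 2. DESeq2 1.42.0, limma 3.58.1, other scalings, no filter, unmerged and hairpin counts, and left-out libraries were run as alternatives. Ratios of counts carry exact 95% intervals and shares carry Wilson intervals. The fits were also run on simulated data with a smaller spread between libraries than was fitted here, so that run gives no error rate for these comparisons. Members, lists and tests were chosen with earlier results of these data known. All arms of the members are named. Of the other epithelial miRNAs the 4 of highest mean CPM are named, and of like patterns the 5 closest. Positions come from the GENCODE annotation of GRCm38, which mm10 equals in chromosome coordinates, and sequences from RefSeq.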

Additional observations from a re-analysis of the deposited data

How the results depend on the processing

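In adults 0 of 5 arms passed under other scalings, in DESeq2, limma-voom, hairpin or unmerged counts, 0 of 9 without the filter, and 0 to 3 passed when libraries were left out in turn, with 3 only without adult KO replicate 2. The same-numbered adult replicates did not deviate together (correlation 0.0091 over 544 miRNAs, 2 pairs). With a single difference between replicates per genotype, whether the numbers pair them cannot be told. With the number as a replicate block 0 arms and 5 miRNAs passed. In that edgeR fit 2 arms had an unadjusted p under 0.05, against 0 without the block. For the stage comparison 5 to 6 arms passed without an adult library, against 42.3% to 57.1% of all miRNAs tested. Without the filter 5 of 9 arms passed, against 32.3%, and 4 of 5 hairpins passed, against 56.9% of all hairpins tested. Fits left with 1 e13.5 library called fewer arms than the 6 of the main fit. These counts include miR-200a-5p or miR-200b-5p, which the main filter selected through e13.5. The genotype count was 0 in each fit with stage in the model. The interaction count was 0 in each fit of all 6 libraries, and the folds of miR-200b-3p and miR-429-3p were highest without adult KO replicate 2.

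The sign of miR-141-3p, which no fit called, turned in several. In adults it was 0.17 with limma-voom, 0.078 with the replicate block and −0.80 to 0.93 with libraries left out. Between stages it was −0.50 with median-of-ratios factors, −0.74 with library totals, −0.48 with DESeq2, −0.029 with limma-voom, −0.43 without the e13.5 KO library, −0.44 among WT libraries and −0.50 to 0.31 with adult libraries left out. The interaction turned with library totals for miR-200b-5p (0.92) and miR-200c-3p (0.71), and with DESeq2 for miR-200b-5p (0.092). With libraries left out it ranged from −3.20 to 2.26 for miR-200b-5p, −0.38 to 0.24 for miR-200c-3p and −0.17 to 1.64 for miR-200a-3p. The cause of these turns was not tested. With the 10 most abundant miRNAs out of the denominator, the family held 100.7 and 82.4 CPM in adult KO, 123.7 and 153.6 CPM in adult WT, 5660 CPM in e13.5 KO and 5837 CPM in e13.5 WT; the order of the e13.5 genotypes turned. Hairpin counts for the shares by chromosome were an alternative chosen after seeing the data and moved none of them beyond counting error.

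With 2 adult libraries per genotype and 1 e13.5 library per genotype, the genotype comparisons rest on few residual degrees of freedom, and e13.5 genotype and library cannot be told apart. Stage and any difference in how the libraries of each stage were made cannot be told apart either. The rare arms miR-141-3p, miR-141-5p, miR-200b-5p and miR-200c-5p were too shallow to show moderate differences.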
